A study of Komagataella phaffii with 12 samples.

Results

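The regions described here are the places in the chromosome interiors of Komagataella phaffii where open chromatin was called in every wild-type library. FAIRE-Seq, the sequencing of regulatory elements isolated with formaldehyde and phenol, recovers DNA that is not held by nucleosomes, and a peak caller turns the reads into a list of open regions. Merging all nuclear peaks of the 10 FAIRE-Seq lists wherever they had 1 bp or more in common gave 665 loci. Of these, 116 had a peak in all 6 wild-type (WT) lists and a midpoint at least 100 kb from both chromosome ends. A further 343 interior loci had a peak in 1 to 5 WT lists, 165 interior loci had none, and 41 loci lay within 100 kb of an end. The members were thus chosen by presence in the WT lists, and that presence is not a result.

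The samples were glucose-limited chemostat cultures of the strain CBS7435 with a disrupted FLO8 gene (delta-flo8, here flo8) and of the CBS7435 wild type. FLO8 encodes a transcriptional regulator of flocculin genes, which code for adhesive cell wall proteins. Samples of both strains were drawn once 5 residence times had passed, first in fast growth (0.1 per hour), next in slow growth (0.05 per hour) and last in switchback, when the rate had been set to 0.1 per hour once more. There were 2 flo8 fast libraries, 1 flo8 slow and 1 flo8 switchback library, since a chemostat had been stopped early, and 2 WT libraries of every stage. Input controls were fixed chromatin of each strain, decrosslinked before the phenol extraction. The stages followed each other in a chemostat run, so libraries of different stages may share a culture, and the labels do not say which. All p-values over libraries treat them as independent.

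In yeasts, nucleosome-free stretches are found mainly upstream of genes, where transcription factors and the transcription machinery bind, and also at origins of replication. The promoters of genes in steady use, such as housekeeping genes, tend to stay open in all growth conditions, whereas those of inducible genes open and close. Genes were not placed at the loci, because the gene table at hand belongs to another strain with other coordinates. Loci are therefore named by chromosome, start and end on the CBS7435 genome.

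The nuclear lists held 463 and 356 peaks in flo8 fast, 509 in flo8 slow and 149 in flo8 switchback, against 219 and 199 in WT fast, 203 and 382 in WT slow and 356 and 346 in WT switchback. The flo8 and WT lists have different formats, although the methods name 1 caller, so strain and format cannot be told apart in any comparison below. The lists carry no read numbers, and sequencing depth is unknown. Peaks at the 116 loci made up between 26.7% and 49.0% of the flo8 lists and between 30.4% and 58.3% of the WT lists. That share was high where the list was short. In the WT this follows from the choice of loci, since every WT list holds all 116.

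A first question was whether the regions that were open throughout in the WT were also open without Flo8. Flo8 fast libraries held 106 (91.4%) and 97 (83.6%) of the 116 loci. Flo8 slow held 111 (95.7%, 95% Clopper-Pearson interval 90.2 to 98.6), and flo8 switchback held 69 (59.5%, 50.0 to 68.5). Of the 343 interior loci open in only some WT lists, the same libraries held 184 (53.6%), 158 (46.1%), 220 (64.1%) and 64 (18.7%). Over all 459 interior loci with a WT peak, the background was 63.2% and 55.6% for flo8 fast, 72.1% for flo8 slow and 29% for flo8 switchback. The share was higher at the always-open loci in 4 of 4 flo8 libraries, by 36.9 percentage points on average (exact sign-flip permutation test, two-sided p = 0.125, the smallest that 4 libraries allow, and 0.429 after Benjamini-Hochberg adjustment over the 9 tests made here). This difference was 14.1 points with the higher-scoring 50% of each list and 1.802 points when a peak had to cover at least 50% of its locus, with flo8 peaks having a median of 24.7% of the mean WT width. The always-open loci were also wider, with a median of 1253 bp against 931 bp for the loci open in some WT lists, and the part that width plays in the overlap was not tested.

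**Figure D1:**
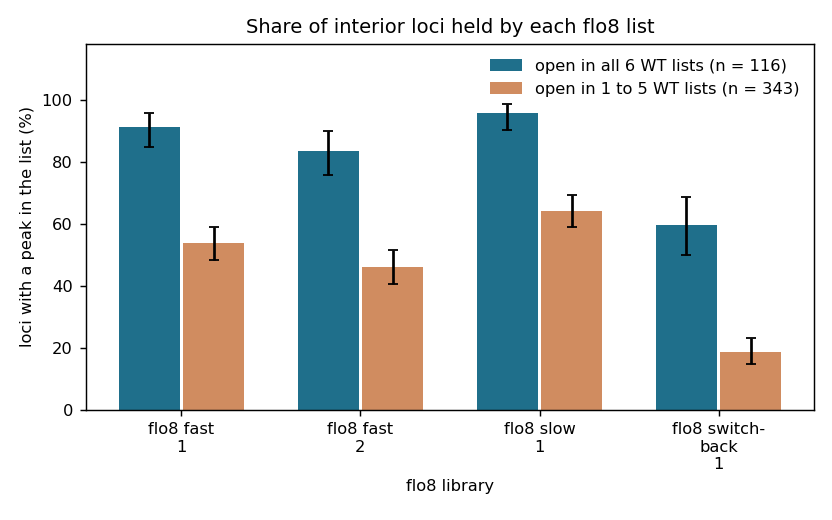
Share of interior loci with a peak in each flo8 library (y axis, percent), for the 116 loci open in all 6 WT lists (blue) and the 343 loci open in 1 to 5 WT lists (orange); bars are shares and error bars are 95% Clopper-Pearson intervals (counting error over loci alone). The blue bar is the higher in each of the 4 libraries, from 59.5% to 95.7%, and both bars are lowest in flo8 switchback.

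All 4 flo8 lists held 69 of the 116 loci (59.5%), against a background of 28.5% of the interior loci with a WT peak. Of the rest, 26 were held by 3 flo8 lists, 11 by 2, 7 by 1 and 3 by none, where 24% of the background loci were held by none. Of the 343 loci open in some WT lists, 88 were held by 3 flo8 lists, 28 by 2, 58 by 1 and 107 by none. The shares in 3 and in 2 flo8 lists were thus similar in both sets. The flo8 switchback list set the count of 69, because each of the 69 loci it held was also held by the other 3. Without that short list, the flo8 lists together held 95 of 116 loci, with a background of 52.9%. The share held by all 4 flo8 lists was lower the fewer WT lists held a locus, with 59.5% at 6 WT lists, 41.5% at 5, 32.0% at 4, 23.2% at 3, 14.1% at 2 and 3.36% at 1.

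**Figure D2:**
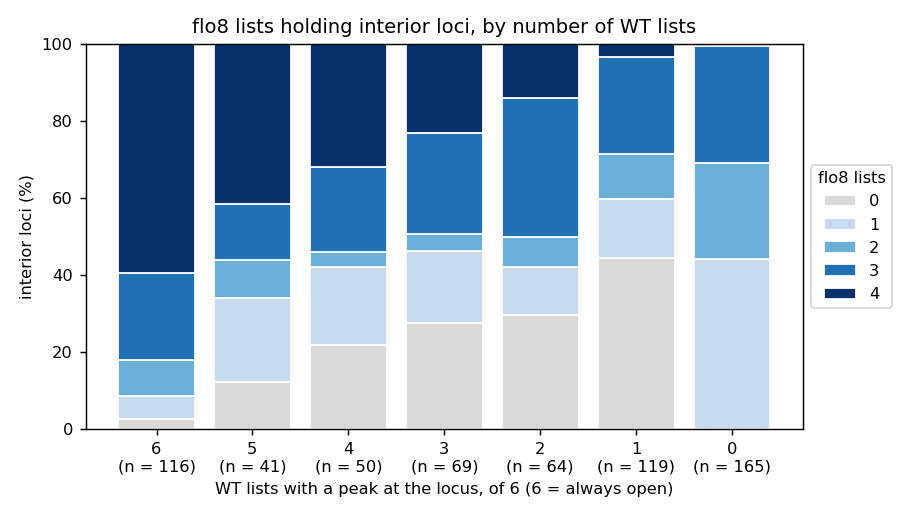
Interior loci by the number of WT lists that hold them (x axis, from 6 to 0, with the number of loci) and the percentage of each class held by 0 to 4 flo8 lists (stacked bars, shades from grey to dark blue). The dark blue part, loci in all 4 flo8 lists, is 59.5% for the always-open loci and 3.36% for those in 1 WT list.

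The 3 always-open loci with no flo8 peak were not the weakest ones. On chromosome 1 from 439528 to 441548, the WT score, read here as 10 times the −log10 p-value of the peak, was 775 and 673 in WT fast, 553 and 843 in WT slow and 651 and 717 in WT switchback. These were ranks 15, 13, 27, 31, 36 and 30 among the 116 loci, and the nearest flo8 peak lay 11848 bp away. The locus on chromosome 2 from 2188255 to 2189490 had scores of 322 and 305, 303 and 598, and 477 and 241 at the same stages, which is a middle position except for WT switchback replicate 2, where it was 109th and its peak was 743 bp wide, with 1045 to 1208 bp in the other 5 lists. Its nearest flo8 peak was 12094 bp away. The third lay on chromosome 3 from 1504955 to 1507471 and is described with the growth stages below.

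A single flo8 list held 7 loci, and for 6 of them it was the slow library, the longest of the lists. They lay on chromosome 1 from 365438 to 367007, on chromosome 2 from 406378 to 407643, on chromosome 3 from 1970902 to 1972033, and on chromosome 4 from 129481 to 132136, from 817021 to 818078 and from 1242812 to 1244506. Their fold enrichment over the control there was between 2.14 and 3.53. The seventh, on chromosome 1 from 196920 to 199011, was held by flo8 fast replicate 1 with a fold of 2.72. Their mean percentile of the WT score, where 100 is the highest peak of a list, had a median of 79.9, and that of the 69 loci in all 4 flo8 lists was 70.3. WT strength thus did not order the loci by flo8 presence, and the loci in 2 flo8 lists had the lowest median, 49.8.

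The fold enrichment in the flo8 lists gave a second measure that the choice of loci had not used. Its median at the always-open loci was 3.42 and 3.14 in flo8 fast, 3.26 in flo8 slow and 3.10 in flo8 switchback, and at the other interior peaks of the same lists it was 3.09, 2.91, 2.98 and 3.14. The difference averaged 0.09 on the log2 scale and was positive in 3 of 4 libraries, with flo8 switchback the exception (exact sign-flip permutation p = 0.25, adjusted p = 0.429). It was 0.06 when loci were merged from the WT lists alone and 0.42 when a peak had to cover at least 50% of its locus. Single flo8 peaks seldom reach that cover (95th percentile 42.1% of the mean WT width). Fewer flo8 libraries entered as well (8 arrangements against 16), so the 0.42 does not describe the 116 loci. Folds at single always-open loci lay between 2.14 and 5.13 over the 4 lists. The loci that flo8 switchback held had the higher median folds in the other flo8 lists, with overlapping ranges. Their median fold was 3.77 and 3.30 in flo8 fast and 3.51 in flo8 slow, against 3.07, 2.79 and 3.03 for the members it lacked. In flo8 fast replicate 1 the folds ran from 2.27 to 5.13 at the held loci. They ran from 2.35 to 3.97 at the lacked members with a peak there. This split was not made for the other interior loci.

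The 5 loci named next led by mean fold among those in all 4 flo8 lists. The first, on chromosome 1 from 2729914 to 2731289, had folds of 5.13 and 4.15 in flo8 fast, 4.46 in flo8 slow and 3.54 in flo8 switchback. The second, on chromosome 2 from 1198212 to 1199369, had 4.37, 3.84, 4.37 and 4.26 in the same order. Next came chromosome 1 from 425503 to 426531, with 4.32, 4.27, 4.41 and 3.64, and overlapped a region of both inputs. Both remaining loci lay on chromosome 4, from 492182 to 493190 and from 638202 to 639500, with mean folds of 4.05 and 4.03. Their WT ranks had little in common, since the first stood between 11th and 33rd among the 116 loci in the WT lists and the one from 425503 between 62nd and 113th. At the other end, the locus on chromosome 3 from 360045 to 361404 had folds of 2.90, 2.57, 2.49 and 2.26. The next lowest lay on the same chromosome from 349406 to 350360 and on chromosome 1 from 823884 to 825221, with mean folds of 2.70 each.

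At the 69 loci in all flo8 lists, the flo8 slow fold was above both flo8 fast folds at 22 and below both at 22 loci (31.9% each, background 35.1% and 24.4% of the 131 interior WT-held loci in all flo8 lists). The flo8 switchback fold was below both fast folds at 50 of 69 loci (72.5%, background 68.7%) and above both at 6 (8.70%, background 6.11%). The members thus stood near the background in all of these counts, but 69 of the 131 background loci are these members, so nearness is partly built in. Both later stages had 1 flo8 library.

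The order of strength among the always-open loci was shared within a strain and not between the strains. Over the 69 loci held by all 10 lists, Spearman's rho of the scores was between 0.62 and 0.81 for the 6 pairs of flo8 lists and between 0.77 and 0.91 for the 15 pairs of WT lists. For the 24 pairs of a flo8 and a WT list it was between −0.07 and 0.32, with a median of 0.03. The highest values came from WT switchback replicate 1, with 0.25 and 0.32 for the flo8 fast lists and 0.22 for flo8 switchback. These values describe 69 loci that share a genome, and each list's loci share its depth and caller. Each strain had its own input control. The WT score moved with peak width, with a rho of 0.89 to 0.91 in the 6 WT lists, and the flo8 score did so less, with 0.35 to 0.61. The mean flo8 fold had a rho of 0.06 with the mean WT percentile. An example is the locus on chromosome 1 from 1131895 to 1132863, which had the lowest mean WT percentile of all members, 28.6, and flo8 folds of 4.04, 3.67, 4.08 and 3.96, among the higher ones.

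**Figure D3:**
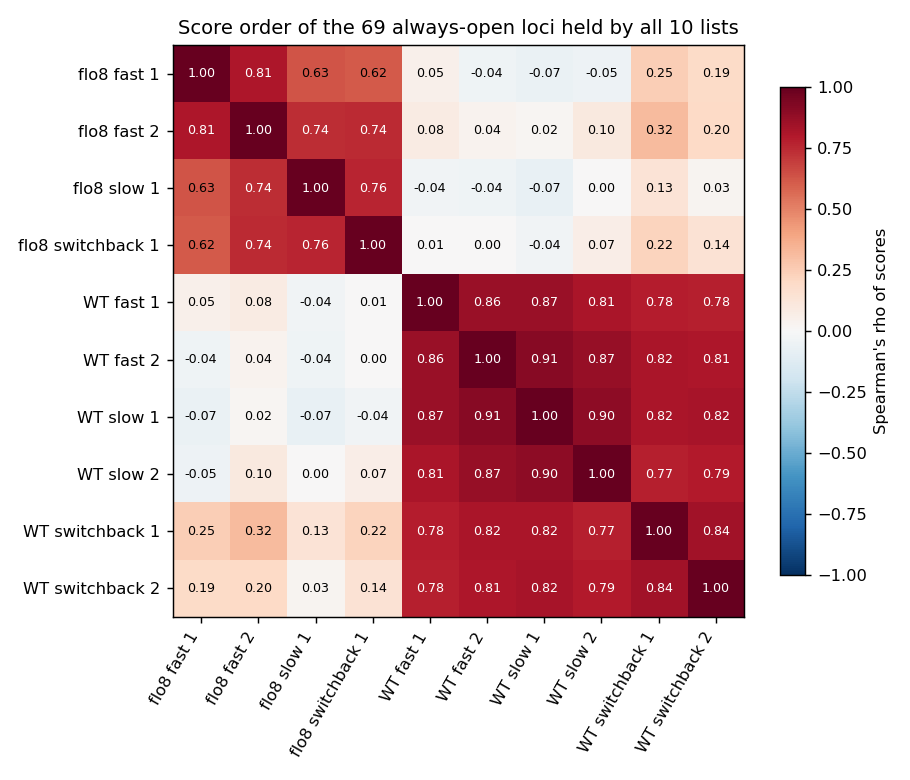
Spearman's rho of the peak scores of each pair of lists, over the 69 always-open loci that all 10 lists hold (rows and columns are libraries, flo8 first; colour and printed number give rho). The flo8 block lies between 0.62 and 0.81, the WT block between 0.77 and 0.91, and the block of flo8 with WT between −0.07 and 0.32.

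The peaks were narrower in the flo8 lists. The median width at the always-open loci was 292.5 and 280 bp in flo8 fast, 300 bp in flo8 slow and 245 bp in flo8 switchback, against 1124.5 and 1103 bp in WT fast, 1140 and 1146.5 bp in WT slow and 1005 and 1051 bp in WT switchback. The flo8 minus WT difference, averaged over stages, was a log2 value of −1.99, so that flo8 peaks had 25.2% of the WT width (exact permutation test within stages, p = 0.0185, the smallest of 54 arrangements; adjusted p = 0.167). The narrowest peak of any kind was 174 to 193 bp in the flo8 lists and 651 to 793 bp in the WT lists, so the lists differed in their lower limit as well. All flo8 peaks were narrower than all WT peaks at each of the 113 loci held by both strains.

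Within these wide WT peaks the flo8 summits lay centrally. A flo8 peak was counted only where it overlapped the merged locus, so a summit inside the WT peaks is partly built in. The counts below were not made for the other interior loci and mark no trait of the members. The 6 WT peaks of a locus shared at least 1 base at all 116 loci, and the midpoints of a locus had a median SD of 21.1 bp over the 6 lists. Of 383 flo8 summits, 1 per locus and list, 377 (98.4%) lay inside the bases common to all 6 WT peaks and 307 (80.2%) in the central part of the mean WT peak when it was cut into 3 equal parts. The median distance of a summit from the mean WT midpoint was 72.8 bp. At 18 loci at least 2 flo8 lists had more than 1 peak, and the WT peaks there had a median width of 1570 bp, against 1010 bp at the 85 loci where each flo8 list that held the locus had 1 peak. Neighbouring flo8 summits within a locus and list were 682 bp apart in the median, with a range of 396 to 1349 bp over 70 gaps.

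The strongest member in the WT lay on chromosome 1 from 2498722 to 2500311. Its scores were 1317 and 1037 in WT fast, 824 and 1507 in WT slow and 1860 and 1782 in WT switchback, and it kept a width of 1504 to 1575 bp. In the 4 flo8 lists it was a single peak with folds of 3.86, 3.48, 3.45 and 3.37. It opens the only group of 3 members with neighbouring midpoints within 5 kb, which spans 6.53 kb. The middle member, from 2500602 to 2501646, stood between 68th and 115th among the 116 loci. The third, from 2502959 to 2505249, was first in 5 WT lists, with scores of 1311 to 2117, and 38th in WT switchback replicate 2, with a score of 615. Its peak there was 1061 bp wide, against 2072 to 2280 bp in the other 5 lists, and began 1219 bp to the right of the locus start. It held 2 or 3 flo8 peaks and overlapped a region of the flo8 input.

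The other leading members by mean percentile in the WT were, in order, on chromosome 1 from 1940788 to 1943075, then 2502959 (above), then on chromosome 1 from 2458214 to 2460291 and from 524806 to 526766, on chromosome 3 from 751547 to 753180, on chromosome 4 from 635462 to 637779, on chromosome 1 from 1176734 to 1178353, on chromosome 3 from 1140361 to 1141877 and on chromosome 4 from 301376 to 303200. All 10 leading loci were held by at least 3 flo8 lists, and 8 of them by all 4. Their mean WT widths were all above the median of the members, 1133 bp. The locus on chromosome 4 from 635462 varied little, with widths of 2267 to 2318 bp and ranks of 7 to 14 among the 116 loci, and 3 flo8 lists resolved it into 3 peaks each. At the lower end, the members with the lowest percentiles after chromosome 1 from 1131895 lay on chromosome 2 from 2280197 to 2281154 (mean percentile 30.5) and on chromosome 4 from 900629 to 901668 (32.2). All 3 of these weakest WT members were held by all 4 flo8 lists.

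The narrowest members by mean WT width lay on chromosome 2 from 1035122 to 1036089, again on chromosome 2 from 2280197, and on chromosome 3 from 349406, between 884 and 921 bp. The widest lay on chromosome 3 from 1504955, on chromosome 1 from 1201867 to 1204682 and on chromosome 4 from 635462, between 2296 and 2395 bp. The locus on chromosome 1 from 1201867 was 2712 to 2790 bp wide in 4 WT lists and 1420 and 1390 bp in WT fast replicate 1 and WT switchback replicate 2, which ended about 1.4 kb short of its right edge. It held 3 and 2 peaks in flo8 fast, 3 in flo8 slow and none in flo8 switchback.

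Growth stage was compared within the WT by the rank of the members in their lists. Their median percentile was 68.3 and 58.8 in WT fast, 64.1 and 81.0 in WT slow and 79.0 and 77.8 in WT switchback. The slow minus fast difference was 8.95 points (exact permutation p = 0.667, two-sided), switchback minus slow was 5.88 (exact p = 1) and switchback minus fast 14.8 (exact p = 0.333, the smallest that 2 against 2 libraries allow). These values moved with list length. With the 199 highest-scoring peaks of each list, the number in the shortest WT list, the differences were −0.38, 0.63 and 0.25 points. That cut also left 98 members instead of 116. The slow minus fast difference was 0.62 when WT slow replicate 2 was left out and 17.2 when replicate 1 was left out instead. Switchback minus slow was 14.4 without the slow replicate 2 and −2.55 without the slow replicate 1. The background for single loci was all nuclear loci held by the 4 lists compared, the members included. Without overlap between the libraries of both stages, the percentile was higher in slow than in fast growth at 29 loci (25%, background 26.6%) and lower at 4 (background 4.32%). In switchback it was above slow growth at 36 of 116 (background 30.1%) and below at 10 (8.62%, background 6.75%), and above fast growth at 77 (66.4%, background 63.7%) and below at 7 (6.03%, background 6.85%).

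**Figure D4:**
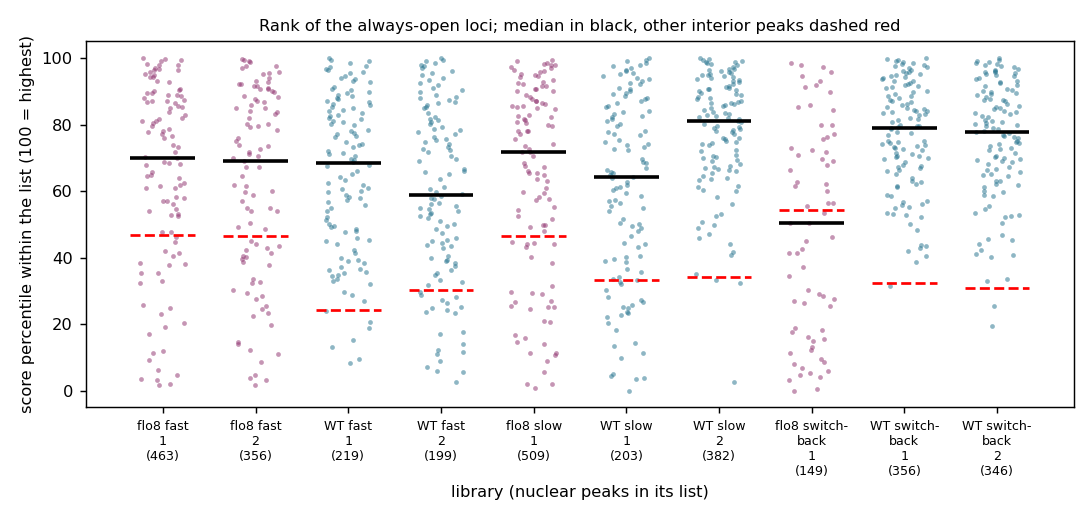
Score percentile of each always-open locus that a list held, within that list (y axis, 100 is the highest peak) for the 10 libraries, by stage with flo8 (purple) before WT (blue); the number of nuclear peaks in the list is in parentheses, black lines are medians and dashed red lines are medians of the other interior peaks. Medians of the always-open loci lie above the dashed line in 3 of 4 flo8 lists, with flo8 switchback (50.3 against 54.4) the exception; the WT lists chose the loci, so their higher medians, up to 81.0, are a description.

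Median width was compared in the same way. The log2 difference was −0.15 for switchback minus slow, −0.12 for switchback minus fast and 0.04 for slow minus fast, with no overlap of the library medians in any of the 3 comparisons (exact permutation p = 0.333 each, the smallest possible, adjusted p = 0.429). At single loci, both switchback peaks were narrower than both slow peaks at 58 of 116 (background 49.7% of 163 loci) and wider at 4 (background 3.68%). Against the fast stage they were narrower at 41 (background 34.9% of 146 loci) and wider at 9 (background 9.59%). Slow peaks were wider than fast peaks at 29 loci (background 26.6% of 139 loci) and narrower at 11 (background 10.1%). The narrowest peak of any kind was 713 and 759 bp in the fast lists, 793 and 714 bp in the slow lists and 669 and 651 bp in the switchback lists, so the lower limit of the lists was lowest in switchback too.

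To set list length aside, the 116 loci were ranked among themselves in each list, a choice made after the list percentiles had been seen. Their order was most alike between fast and slow, with Spearman's rho between 0.82 and 0.87 over the 4 pairs, 0.89 between the slow replicates and 0.85 between the fast replicates. Switchback lists had 0.73 to 0.74 with the slow lists, 0.70 to 0.73 with the fast lists and 0.77 with each other. The order after the return to fast growth was therefore the least like the others, and also the least alike between replicates. A locus spanned 31 places in the median over the 6 lists, from 3 to 105 places, and 14 loci stayed in the highest 29 in all 6 lists.

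Rank among the members was without overlap higher at the slow than at the fast stage for 17 loci and lower for 24 (14.7% and 20.7%, background 15.8% and 21.6%). For switchback against slow it was 32 higher and 20 lower (27.6% and 17.2%, background 23.9% and 19%), and for switchback against fast 37 higher and 22 lower (31.9% and 19.0%, background 27.4% and 21.9%). All of these shares lay within about 5 points of the background. That background contains the 116 members (among 139, 163 and 146 loci, in the order of the comparisons), so nearness to it is largely built in.

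**Figure D5:**
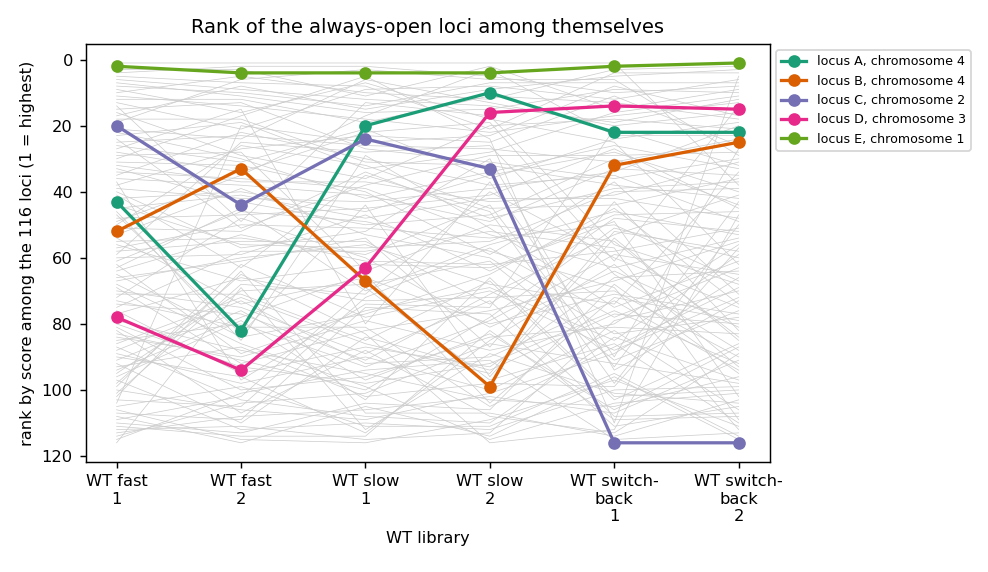
Rank by score of the 116 always-open loci among themselves (y axis, 1 is the highest) in the 6 WT libraries (x axis); grey lines are single loci. Locus A (chromosome 4 from 728660), locus B (chromosome 4 from 1124525), locus C (chromosome 2 from 1584251) and locus D (chromosome 3 from 1504955) lead the stage comparisons, and locus E (chromosome 1 from 2498722) stayed between 1st and 4th.

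On chromosome 2 from 1584251 to 1586194 the peak was weaker and shorter in switchback. Its scores were 696 and 380 in fast growth, 592 and 816 in slow growth and 220 and 184 in switchback, and its rank among the members was 116, the last, in both switchback lists, against 20 to 44 in the other 4. The peak was 1736 and 1278 bp wide in fast growth, 1763 and 1880 bp in slow growth and 817 and 786 bp in switchback. It ended at the same right edge within 126 bp in all 6 lists, and its left edge lay 159 and 627 bp inside the locus in fast growth, 55 and 0 bp in slow growth and 1127 and 1120 bp in switchback. Both switchback libraries lay below the other 4 in score, rank and width. In flo8 the locus was held by both fast lists, with folds of 2.56 and 2.41, and by neither later list.

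A pair of other loci had peaks that were shorter on the right in switchback than in slow growth. The peak on chromosome 4 from 566643 to 568553 ended 908 and 891 bp inside the locus in switchback, against 0 and 12 bp in slow growth, while WT fast replicate 1 was short by 864 bp and WT fast replicate 2 by 33 bp. The peak on chromosome 1 from 2695255 to 2697388 ended 66 and 914 bp inside in fast growth, 0 and 12 bp in slow growth and 953 and 990 bp in switchback. In both cases 1 fast replicate had the switchback form and the other the slow form.

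On chromosome 3 from 1504955 to 1507471 the score was higher in switchback than in fast growth while the width stayed alike. The score was 307 and 214 in fast growth, 287 and 1082 in slow growth and 1073 and 939 in switchback, and the rank among the members was 78 and 94, then 63 and 16, then 14 and 15. The 2 switchback libraries lay above the 2 fast ones without overlap, and the slow replicates were far apart. Widths were 2276 to 2517 bp in all 6 lists. This locus overlapped a region in both inputs, had no flo8 peak, and the nearest flo8 peak was 8361 bp away.

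The locus on chromosome 4 from 1124525 to 1125941 stood lowest in slow growth. Its score was 420 and 461 in fast growth, 273 and 344 in slow growth and 756 and 766 in switchback, with widths of 1298 and 1387 bp, 992 and 985 bp, and 1351 and 1417 bp. The slow peaks ended 353 and 404 bp short on the right and the other 4 at most 14 bp short. All 4 flo8 lists held this locus, with folds of 3.02, 2.72, 2.54 and 2.64. Slow growth gave the higher rank on chromosome 4 from 728660 to 730158, with scores of 492 and 237 in fast growth, 631 and 1209 in slow growth and 911 and 809 in switchback. It was picked by rank among the members, after the values had been seen.

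On chromosome 4 from 1286903 to 1287900 the score was 193 and 173 in fast growth, 153 and 228 in slow growth and 385 and 415 in switchback, and the percentile was 18.8 and 11.1, then 3.47 and 35.2, then 70.1 and 73.0. Both switchback libraries were above the other 4, at widths of 931 to 987 bp throughout. All 4 flo8 lists held it, with folds of 3.39, 2.82, 3.09 and 3.04.

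The remaining loci with the leading percentile differences between stages are given by percentile in the order fast, slow and switchback. Higher in slow than in fast growth were chromosome 2 from 1559277 to 1560288, with 29.8 and 12.1, 50.0 and 72.4, and 43.7 and 47.0, and chromosome 1 from 1209686 to 1210747, with 34.4 and 23.2, 53.96 and 81.6, and 70.4 and 76.2. In both, the slow peaks were also the wider ones relative to fast growth, with 978 and 1012 bp against 941 and 905 bp at the first locus. Lower in slow growth were the middle member of the group on chromosome 1 from 2500602, with 60.6 and 39.4, 25.7 and 32.5, and 53.5 and 52.8, and the locus on chromosome 1 from 439528 that lacks flo8 peaks, with 92.7 and 92.4, 86.6 and 90.8, and 87.3 and 89.6.

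Higher in switchback than in slow growth were chromosome 4 from 622050 to 623136, with 36.7 and 55.1, 40.6 and 2.62, and 42.8 and 82.6, and chromosome 2 from 1650612 to 1651769, with 35.8 and 17.7, 13.4 and 58.3, and 65.1 and 74.8. Replicates of a stage were far apart at both, and the locus on chromosome 2 overlapped a WT input region. Chromosome 2 from 1218287 to 1219296 was higher in switchback than in fast growth, with 23.9 and 7.07, 22.8 and 49.9, and 74.1 and 59.7. Lower in switchback than in fast growth were chromosome 2 from 1137061 to 1138719, with 85.3 and 82.3, 60.4 and 83.7, and 80.0 and 66.4, and chromosome 3 from 400695 to 401902, with 71.6 and 75.8, 66.8 and 80.1, and 67.9 and 69.3. The peak from 1137061 was 1620 and 1520 bp wide in fast growth, 1024 and 1085 bp in slow growth and 998 and 969 bp in switchback.

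Such changes of outline were counted over all members, with a limit chosen after the values had been seen. The widest WT peak of a locus was at least 1.5 times the narrowest at 17 of the 116 loci. The narrowest peak belonged to a switchback library at 13 of them (6 and 7), to a fast library at 4 and to a slow library at 0. These counts were not made over other loci. Switchback peaks were narrower in the background too, than slow peaks at 49.7% of 163 loci and than fast peaks at 34.9% of 146. The rank of these 17 among the members spanned 56 places in the median, against 27 for the other 99, and they were 7 of the 14 loci that moved by over 60 places. Because the WT score moved with width (rho 0.89 to 0.91), the rank span is not a separate measure. At the extreme, the locus on chromosome 4 from 129481 to 132136 varied 2.50-fold in width, with peaks of 1056 and 1053 bp in WT slow replicate 1 and WT switchback replicate 1, against 2032 to 2631 bp in the other 4, so replicates of a stage differed from each other there.

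The always-open loci were spread over all 4 chromosomes. There were 43 on chromosome 1, 22 each on chromosomes 2 and 3, and 29 on chromosome 4, which is between 10.0 and 17.9 per Mb of interior. They were 29.7%, 21.2%, 21.8% and 26.6% of the interior loci with a WT peak there. All 4 flo8 lists held 60.5%, 45.5%, 72.7% and 58.6% of the members on these chromosomes. The background over all chromosomes was 28.5%. It was not computed for each chromosome, so these shares do not show a difference between chromosomes that is particular to the members. Neighbouring members were 41.9 kb apart in the median. All 459 interior loci with a WT peak had a median gap of 12.7 kb, but a set with more loci has shorter gaps by number alone, so the values do not compare clustering. The gaps between members ran from 1.61 to 528 kb.

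Long stretches without a member still held other open regions. The longest lay on chromosome 2 between 407643 and 933869 and contained 23 loci open in 1 to 5 WT lists and 12 found in flo8 alone. On chromosome 1 the stretch from 825221 to 1131895 held 9 and 5 such loci. On chromosome 3, that from 401902 to 602818 held 6 and 1, and on chromosome 4, that from 132136 to 301376 held 14 and 1. Each stretch contained a locus that was missing from only 1 WT list.

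Within 5 kb of another member lay 19 of 116 (16.4%), in 8 pairs and the group of 3 on chromosome 1. Of the 459 interior loci with a WT peak, 173 (37.7%) lay within 5 kb of another such locus. That share also rises with the number of loci, so the values do not compare clustering. The closest members were 1.61 kb apart. The nearest interior locus of any kind was another member for 26 members, a locus open in some WT lists for 61 and a flo8-only locus for 29, at a median distance of 5.00 kb. These kinds made up 116, 343 and 165 of the 624 interior loci. The counts thus lay near how common each kind was and mark no trait of the members. Of the close pairs, that on chromosome 4 from 635462 to 639500 joined one of the 10 leading WT loci with one of the 5 loci of highest flo8 fold.

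Input regions overlapped 9 of the 116 members (7.76%, 95% Clopper-Pearson interval 3.61 to 14.2), against 16 of the 343 loci open in some WT lists (4.66%, 2.69 to 7.46) and a background of 5.45%. The flo8 input gave 6 of these and the WT input 5, with 2 in both. The 9 members had a median mean percentile of 60.2, against 71.9 for the other 107, and 4 of them were in all flo8 lists. They include the third member of the group on chromosome 1 and the widest member, on chromosome 3.

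Members close to the limits of the choice were looked at once. The 41 interior loci with 5 of 6 WT lists had a median mean percentile of 46.4 in the lists that held them, while that of the members was 71.7. The missing list was WT fast replicate 2 or WT slow replicate 1 at 12 loci each, WT fast replicate 1 at 7, WT switchback replicates 1 and 2 at 5 and 4, and WT slow replicate 2 at 1. These 41 were led by loci on chromosome 3 from 364173 to 366060, from 2121092 to 2122850 and from 2043314 to 2044492, on chromosome 2 from 1739075 to 1741104 and on chromosome 1 from 2085915 to 2087370, with percentiles between 70.2 and 80.3. A further 13 loci with all 6 WT lists lay within 100 kb of an end. The nearest members to that line lay on chromosome 1 from 2780921 to 2782883 and on chromosome 2 from 2280197, at 109 and 119 kb from an end. The nearest left out lay on chromosome 3 from 2156046 to 2157068 and on chromosome 2 from 90473 to 91430, at 99.5 and 91.0 kb.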

How the data were processed

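Per the labels and methods, the authors mapped paired-end reads to the CBS7435 genome with BWA (version 0.7.13, with SAMtools 1.3, per the submitters' processing notes), removed reads of low mapping quality and called peaks against the input. Replicates are described as pooled for calling, whereas each of the 12 deposited lists is named for 1 library. The WT lists hold a deposited score, with a minimum of 150.16, taken as 10 times the −log10 p-value because lists of this layout usually hold that. The flo8 lists hold a deposited score, the fold enrichment (a ratio), the −log10 p-value (lowest 16.6) and a summit. The input lists hold regions with a deposited score. No list carries read counts, so depth is unknown.

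Coordinates count from 1. Peaks sharing 1 bp were merged, the highest-scoring peak of a library stood for it in a locus, and ranks were taken within a list. Chromosome ends were the highest coordinates named in the input lists (2891190, 2399323, 2256069 and 1820458). Libraries were compared with exact permutation tests in Python 3.11.15 (scipy 1.17.1), checked on simulated lists, with Benjamini-Hochberg adjustment over 9 tests and a threshold of 0.05. Intervals over loci cover counting error only. Alternatives were other merging, list lengths, overlap limits and margins, removal of input regions, a replicate block and leaving out each library.

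The members, the lists and the rules were chosen with earlier results of these data known. Loci named by rule were the 10 highest and 3 lowest by mean WT percentile, those in no or 1 flo8 list, the 5 highest and 3 lowest by flo8 fold, the 3 widest and 3 narrowest, the leading loci of the stage comparisons, the close group of 3, and those next to the limits of the choice. For the stages these are, per pair and direction, the 3 loci with the largest difference in mean list percentile among those without overlap. The locus on chromosome 4 from 728660 was added by rank among the members. No per-sample column was left without a sample.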

Additional observations from a re-analysis of the deposited data

Results flagged for a closer look

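Relative to fast growth, the median percentile of the always-open loci was lower in flo8 switchback and higher in WT switchback. In flo8 it was 50.3 at switchback, against 70.0 and 69.2 at the fast stage, a change of −19.3 points, and in the WT it was 79.0 and 77.8 at switchback, against 68.3 and 58.8, a change of 14.8. Each median covers only the members that the list held. These were 69 in flo8 switchback, 106 and 97 in flo8 fast and all 116 in every WT list, so the flo8 change compares unlike sets of loci. No library of a stage overlapped the other stage in either strain. The difference between these changes, flo8 minus WT, was −34.1 points (exact permutation test over 18 arrangements of the strain labels within stages, two-sided p = 0.0556, the smallest possible), and flo8 switchback had 1 library. It was picked from such contrasts of percentile and width over all pairs of stages. The others had exact permutation p of 0.222 or higher. These tests were not among the 9 adjusted ones. List length moved with the percentile, since the flo8 switchback list was the shortest flo8 list (149 peaks) and the WT switchback lists (356 and 346) were longer than the WT fast lists (219 and 199). With 149 peaks from every list, an alternative chosen after seeing the data that left 77 members, the change was −11.5 points in flo8 and −1.69 in the WT, where the sign turned and WT switchback replicate 1 and WT fast replicate 2 both stood at 66.2, and the difference was −9.80. The opposite directions and the lack of overlap in the WT thus did not hold at equal list length, where no p was computed.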

How the results depend on the processing

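The number of members was 58 with the higher-scoring 50% of each list, which also gave a median spacing of 101 kb and an input share of 3.45%. It lay between 58 and 128 over 18 alternatives. The width difference between flo8 and WT kept its sign in all 19 alternatives, and its unadjusted p was under 0.05 in 15, while the adjusted p with the settings used in the report was 0.167. It was −0.36 (exact permutation p = 0.0556 over 18 arrangements) when peaks had to cover at least 50% of a locus. That setting removes narrow flo8 peaks by rule, and a flo8 library dropped out. Its value is therefore limited by the filter and does not measure the same difference. Without single libraries the difference lay between −2.01 and −1.95. The exact permutation p was 0.0556 without flo8 slow (−2.01) or flo8 switchback (−1.95), where fewer arrangements remain. With 199 peaks from each list, which left 98 members, the slow minus fast percentile was −0.38 (exact p = 1). Without single libraries, switchback minus slow ranged from −2.55 to 14.4 and changed sign without WT slow replicate 1. The cause was not tested. Deviations of same-numbered WT lists over the 116 loci correlated at 0.07, 0.06 and −0.01, so the scores gave no sign of pairing by replicate number. Whether same-numbered libraries share a culture cannot be told from these values. With the replicate block the width difference was −1.97 (exact sign-flip permutation p = 0.125, the smallest for 4 pairs). The WT stage differences kept their values under the block, and none could pass 0.05 with or without it. The share and fold differences were not fitted with a block. Peaks over input regions removed give no input share.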
